A study of Mus musculus with 1627 samples.

Results

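The proteasome, the barrel-shaped protease that degrades ubiquitin-tagged proteins, was followed here through its subunit genes in single regulatory T cells (Tregs) from spleen and injured muscle. Members were all genes of the deposited table whose symbol starts with Psma, Psmb, Psmc, Psmd or Psme followed by a number. They came to 45 of 23725 genes, and 42 of them reached 50 unique molecular identifiers (UMIs, 1 for each captured mRNA molecule) over the 3 libraries. The 3 below that minimum were Psma8, a testis subunit with 1 UMI, and 2 genes that match the symbols but encode no proteasome subunit: Psmc3ip, a meiotic recombination cofactor, with 3 UMIs, and Psme2b, a copy of Psme2, with 0. Cells came from male mice of the B6 Foxp3-Ires-Gfp strain, aged 8 months, whose muscle had been injured with cardiotoxin, a snake venom toxin that kills muscle fibres, 4 days earlier. Both tissues came from injured mice, so no uninjured state is among the groups. The cells had been sorted as live and positive for the T cell receptor, CD4 and the green Foxp3 reporter, from a spleen suspension made mechanically and from muscle digested with collagenase and dispase. The spleen was represented by 1 inDrops (droplet) library and muscle by 2, called muscle 1 and muscle 2 here. Of 1627 cells in all, 15.9% were in the spleen library, 41.4% in muscle 1 and 42.7% in muscle 2.

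The proteolytic core particle (20S) is a stack of 4 rings: outer alpha rings (Psma genes) gate the entry, and inner beta rings (Psmb genes) hold 3 proteolytic sites, made by the proteins of Psmb6, Psmb7 and Psmb5. Under interferon, and at rest in many lymphocytes, newly built particles take up Psmb9, Psmb10 and Psmb8 in their places, which gives the immunoproteasome, known for making peptides that fit MHC class I molecules. A regulatory particle (19S; Psmc ATPases and Psmd subunits) binds the ends of the core and unfolds ubiquitin-tagged proteins. The activator PA28, made by Psme1 and Psme2 and also raised by interferon, can bind in its place, as can the nuclear activators Psme3 (PA28 gamma) and Psme4 (PA200).

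All results are levels in these 3 libraries. The labels name no animal, tissue and library cannot be told apart for the single spleen library, and cells are not replicates, so no test between tissues was possible. Levels are given as CPM, the gene's UMIs per 1000000 UMIs of the library. Every interval is exact at 95% but reflects counting error alone, and since UMIs of a gene cluster within cells it is too narrow. Library sums were 982570 UMIs in spleen, 1533277 in muscle 1 and 1916496 in muscle 2, with a median of 3541, 1976 and 2488 UMIs per cell and 55.01, 24.4 and 44.7 reads behind each UMI. All 8 Treg markers were measured, with Foxp3 at 368.4 CPM in spleen and 554.4 and 551.5 CPM in muscle. Cell barcodes shared between libraries numbered 11 for the muscle pair and 1 for spleen with muscle 1. Of 11 myeloid markers, Adgre1 and S100a8 were at 0 and the list summed to 60.05, 16.3 and 22.4 CPM in spleen, muscle 1 and muscle 2. Of 7 B cell markers, Ms4a1 was at 0, while the list summed to 14.2, 55.4 and 68.9 CPM, most of it in muscle from the MHC class II genes H2-Aa and H2-Eb1. Muscle, stroma and endothelium markers summed to 144.5, 87.4 and 100.7 CPM, with Myh4 and Cdh5 at 0, and CD8 and NK markers to 95.7, 76.3 and 81.4 CPM. The part of these markers in the results was not tested.

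Interferon-inducible members lie in a pair of small gene clusters. In GENCODE M21 on GRCm38, Psmb9 (chr17:34181987-34187764, minus strand) and Psmb8 (chr17:34197721-34201454, plus strand) flank Tap1, the peptide transporter gene, inside the MHC. Psme1 (chr14:55578123-55581529, plus strand) and Psme2 (chr14:55587441-55591113, minus strand) lie 5911 bases apart. Psmb10 (chr8:105935735-105938444, minus strand) stands alone. All 5 are protein-coding. The 5′ ends of Psmb9 and Tap1 overlap on opposite strands, and Psmb8, Psmb10 and Psme1 each overlap another annotated gene on the opposite strand (Gm20496, Gm16156 and Emc9). The strand setting of the counting is not given in the sources used here, so reads from such overlaps cannot be told apart.

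RefSeq start regions (GRCm38.p6, from 150 bases before to 20 after the annotated start) are printed for 2 inducible members, because one carries and the other lacks a short motif through which interferon signalling is known to act. Capitals mark a pair of GAAA runs with 2 bases of any kind between them, the core that interferon regulatory factors bind, on either strand. The Psme1 window (chr14:55578344-55578513, plus strand) holds the interferon regulatory factor core just after the start. The Psmb9 window (chr17:34187311-34187480, minus strand), which does not hold it, is shown because its start region is shared with Tap1: of 300 bases listed around each start, all but 25 are the same DNA.
Psmb9: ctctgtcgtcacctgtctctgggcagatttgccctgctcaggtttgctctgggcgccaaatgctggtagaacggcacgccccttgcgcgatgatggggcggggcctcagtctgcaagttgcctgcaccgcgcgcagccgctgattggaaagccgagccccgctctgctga
Psme1: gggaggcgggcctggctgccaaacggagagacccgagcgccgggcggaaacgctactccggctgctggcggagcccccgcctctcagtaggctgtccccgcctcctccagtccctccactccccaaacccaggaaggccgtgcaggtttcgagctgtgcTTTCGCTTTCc
Start regions of 300 bases (250 before the start, 50 after) were listed for 38 of the 45 members. The interferon regulatory factor core was found in 4 of them (Psmb3, Psmd4, Psmd9 and Psme1), against 3.44% of all 32851 listed windows. TGACNNNGC, the antioxidant-response core bound by Nfe2-type factors that are known to raise proteasome genes, was found in 6 (Psmb5, Psmb6, Psmc6, Psmd9, Psmd12 and Psme4), against 12.4%. None of Psmb8, Psmb9, Psmb10 and Psme2 held either of these motifs in the 300 bases. TTCNNNGAA, the interferon-linked GAS core, was found in 2 members, Psmb8 and Psmd2, against 8.30% of windows. In Psmb8 it began at -97 bases from the start. A member counted if any window listed for it matched, while the percentages are of single windows, so the units differ. These are matches of letters, not binding sites.

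Between tissues, most members were slightly higher in muscle and few changed by much. Of the 42 measured members, 32 were above spleen in both muscle libraries (43.3% of all 7617 genes with at least 50 UMIs were), 2 were below spleen in both (35.4% of all genes), and 8 lay on different sides in the 2 libraries. By the rule of size used here, at least 2-fold in the same direction in both muscle libraries, 1 member was higher (7.47% of all genes) and 0 were lower (3.45%). At 1.5-fold, 7 members were higher (15.9% of all genes), a share close to that of all genes, and 0 were lower (10.8%). The counting interval of the fold lay above 1 in both libraries for 13 members (16.6% of all genes) and below 1 in both for 0 (12.4%). The median log2 fold, averaged over the muscle libraries, was 0.26 over the members and 0.05 over all genes. Ribosomal protein genes took 21.99% of the UMIs in spleen and 13.2% and 13.6% in muscle. With library totals that leave them out, every mean log2 fold dropped by 0.15, the all-gene median became -0.10, and 24 members were above spleen in both libraries and 5 below it, beside 35% and 44.8% of all genes.

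**Figure D1:**
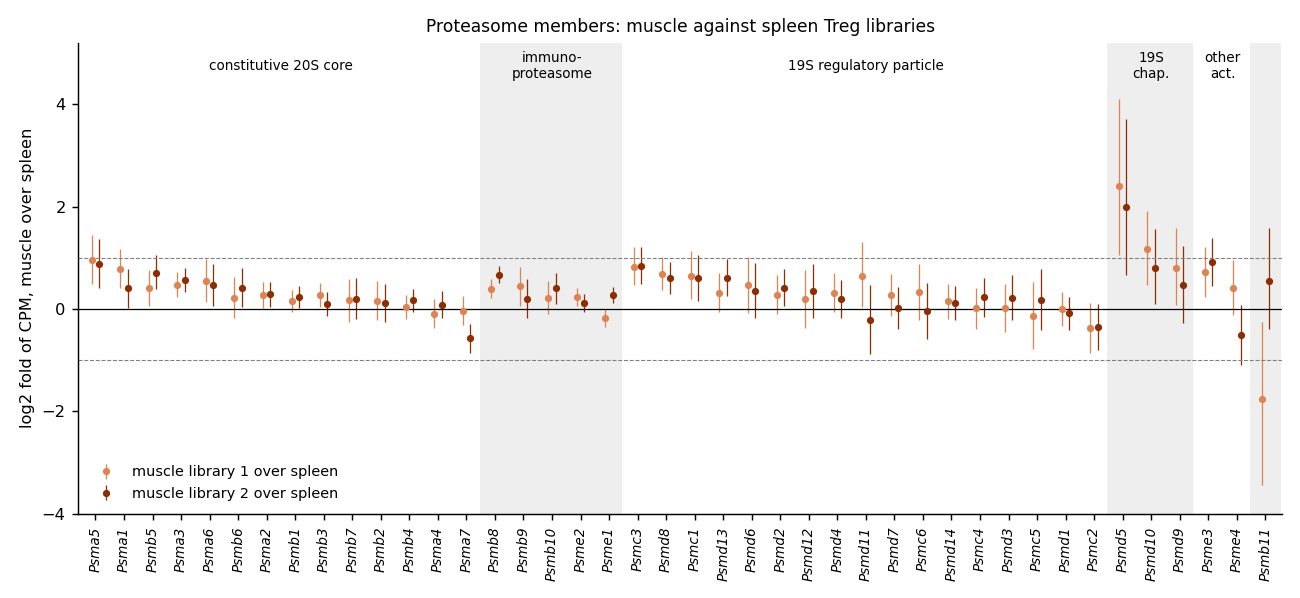
Log2 fold of CPM of each muscle library over spleen (y axis) for the 42 measured members (x axis), grouped by role and ordered within a group by mean fold; points are the 2 muscle libraries, bars the exact 95% counting intervals, dashed lines 2-fold, and the last gene, Psmb11, is the thymus subunit. Most points lie between 0 and 1, only Psmd5 passes 2-fold in both libraries, and the 2 points of Psmb11 lie on opposite sides of 0.

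Immunoproteasome genes as a set summed to 1440 CPM in spleen and to 1622 and 1839 CPM in muscle, a rise of 1.13-fold (1.05 to 1.20) and 1.28-fold (1.20 to 1.36) over spleen. The constitutive core had 2101 CPM in spleen and 2502 in each muscle library, 1.19-fold in both (1.13 to 1.26 and 1.13 to 1.25). The 19S particle stood at 1280, 1577 and 1562 CPM, 1.23-fold (1.15 to 1.32) and 1.22-fold (1.14 to 1.30). All 3 sets were higher in both muscle libraries beyond counting error, and their intervals overlapped one another within each library. These shifts were of the size of the library scaling: the median log2 folds of 0.31 (immunoproteasome), 0.23 (core) and 0.22 (19S) became 0.16, 0.08 and 0.07 without ribosomal protein genes in the totals. With cells thinned to 1000 UMIs the immunoproteasome median was 0.09.

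Psmb8, the inducible chymotrypsin-like subunit, had 364.4 CPM in spleen against 480.02 and 580.2 CPM in the muscle libraries. Both muscle libraries were above spleen, at 1.32-fold (1.16 to 1.499) and 1.59-fold (1.41 to 1.80), and Psmb8 was the only one of the 5 inducible genes with both intervals above 1. No cell held more than 18 of its UMIs. Psmb9, the inducible subunit that takes the place of Psmb6, had 89.6 CPM in spleen and 121.3 and 102.8 CPM in muscle. The fold was 1.35 (1.05 to 1.77) in muscle 1 and 1.15 (0.89 to 1.49) in muscle 2, so the second overlapped no difference. Psmb10, the inducible trypsin-like subunit, had 127.2 CPM in spleen and 148.05 and 168.015 CPM in muscle. Here only muscle 2, at 1.32-fold (1.07 to 1.64), was above spleen beyond counting error.

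Of the PA28 genes, Psme1 (alpha subunit) had 472.2 CPM in spleen, with 418.1 and 567.7 CPM in muscle 1 and muscle 2. The muscle libraries lay on either side of spleen, at 0.89-fold (0.784 to 0.9998) and 1.20-fold (1.08 to 1.34). Psme2 (beta subunit) had 386.7, 454.6 and 420.04 CPM, 1.18-fold (1.04 to 1.34) and 1.09-fold (0.96 to 1.23). Psme1 made up 54.98% (51.5 to 58.4) of the pair's UMIs in spleen, 47.9% (45.2 to 50.6) in muscle 1 and 57.5% (55.2 to 59.7) in muscle 2. The intervals of the 2 muscle libraries did not overlap, with spleen between them, and muscle 1 was the one with the fewest reads per UMI, whose part was not tested. Psme3, the nuclear homologue, had 50.9 CPM in spleen and 83.5 and 95.5 CPM in muscle, 1.64-fold (1.17 to 2.32) and 1.88-fold (1.37 to 2.62). Psme4, which caps the core mainly in the nucleus, had 44.8, 59.4 and 31.3 CPM and was on different sides of spleen in the 2 muscle libraries.

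**Figure D2:**
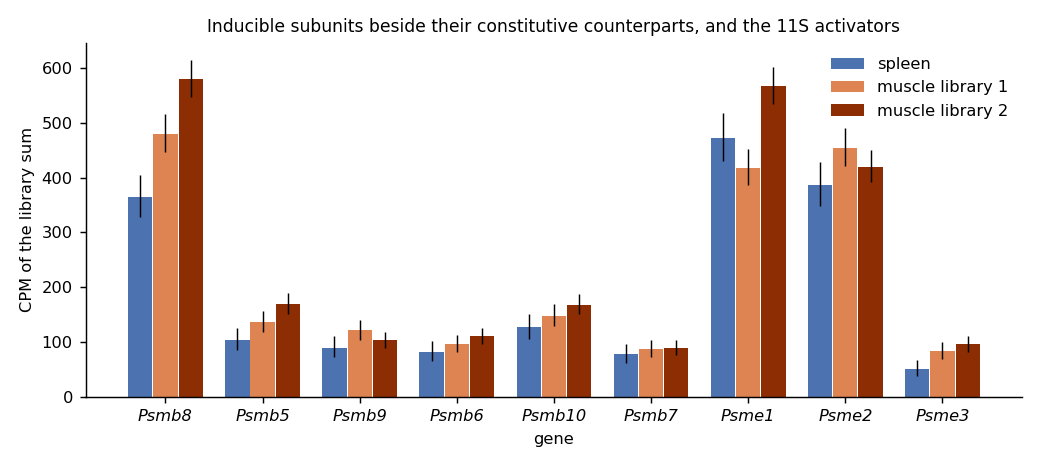
CPM of the library sum (y axis) for the inducible catalytic subunits beside the constitutive subunit each replaces, and for the PA28 genes Psme1, Psme2 and Psme3 (x axis), in spleen and the 2 muscle libraries; error bars are exact Poisson 95% intervals. Psmb8 and Psmb5 go from 364.4 and 103.8 CPM in spleen to 580.2 and 169.6 CPM in muscle 2, and Psme1 is lowest in muscle 1.

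Of the 3 constitutive catalytic genes, 1 had both intervals above 1, as did 1 of the 3 inducible ones (16.6% of all genes did). Psmb5, the chymotrypsin-like site that Psmb8 replaces, had 103.8 CPM in spleen and 136.96 and 169.6 CPM in muscle, 1.32-fold (1.04 to 1.69) and 1.63-fold (1.30 to 2.06). Its mean log2 fold of 0.55 was 0.14 with cells thinned to 1000 UMIs. Psmb6 (caspase-like) had 82.4, 95.9 and 110 CPM, and Psmb7 (trypsin-like) 77.3, 86.7 and 88.7 CPM. Both were above spleen in the 2 muscle libraries, but only Psmb6 in muscle 2, at 1.34-fold (1.03 to 1.75), was so beyond counting error. Processed pseudogenes of all 3 (such as Psmb5-ps) are annotated in GENCODE and have no row in the table, so reads shared with them could have been lost or added.

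Within each pair the inducible share of UMIs did not differ between the tissues beyond counting error. Psmb8 made up 77.8% (73.7 to 81.5) of the Psmb8 and Psmb5 UMIs in spleen, 77.8% (75.02 to 80.4) in muscle 1 and 77.4% (75.1 to 79.5) in muscle 2. Psmb9 made up 52.1% (44.3 to 59.8), 55.9% (50.3 to 61.3) and 48.3% (43.3 to 53.3) of its pair with Psmb6. Psmb10 made up 62.2% (55.1 to 68.9), 63.1% (57.8 to 68.1) and 65.4% (61.1 to 69.6) of its pair with Psmb7. Over the 6 catalytic genes the inducible share was 68.8% (65.5 to 71.9) in spleen, 70.1% (67.8 to 72.3) in muscle 1 and 69.8% (67.9 to 71.6) in muscle 2. Capture can differ between genes, so a share is no protein stoichiometry, and only its comparison between libraries is read. With cells thinned to 1000 UMIs, the Psmb9 share averaged over muscle fell by 12.4 percentage points against spleen and the Psmb8 share was 5.54 points higher. Thinning also leaves fewer UMIs, and the cause of these shifts was not tested.

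Of 19 effector Treg genes 17 were past 2-fold higher in muscle (7.47% of all genes). Of 10 resting lymphocyte genes 7 were past 2-fold lower (3.45% of all genes), and of 16 cell cycle genes 0 passed. The proteasome sets are read beside these larger tissue differences.

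Among the other core genes, the alpha ring held the members with the largest differences. Psma5 had 49.9 CPM in spleen and 96.5 and 91.8 CPM in muscle, 1.94-fold (1.39 to 2.73) and 1.84-fold (1.33 to 2.58), the highest of the core. Psma1 followed with 83.5, 143.5 and 110.1 CPM, and Psmb5, given above, was the third by mean log2 fold. At the other end, Psma7 had 181.2 CPM in spleen and 176.7 and 121.6 CPM in muscle, at 0.98-fold (0.80 to 1.19) and 0.67-fold (0.55 to 0.82), and was the one core gene below spleen in both. Psma4 (178.1, 166.3 and 188.9 CPM) and Psmb4 (245.3, 250.4 and 275.5 CPM) were the next lowest. In all, 12 of 14 core genes were above spleen in both muscle libraries (43.3% of all genes). The intervals of 6 (Psma1, Psma2, Psma3, Psma5, Psma6 and Psmb5) lay above 1 in both (16.6% of all genes).

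For the 19S particle, 12 of 17 genes were above spleen in both muscle libraries (43.3% of all genes). Below spleen in both was 1 (35.4% of all genes), and 4 were split. Psmc3, an ATPase of the base, was highest, with 85.5 CPM in spleen and 151.3 and 152.4 CPM in muscle, 1.77-fold (1.37 to 2.30) and 1.78-fold (1.39 to 2.30). Psmd8, a lid subunit, had 119.1, 191.7 and 180.02 CPM, and Psmc1, another ATPase, had 56.99, 89.4 and 86.1 CPM. Those 3 of the 17 were the 19S genes with both intervals above 1, a share close to the 16.6% of all genes. Psmc2, also an ATPase of the same ring, was the one below spleen in both, with 70.2, 54.1 and 54.8 CPM and intervals that reached 1 (0.55 to 1.08 and 0.57 to 1.07). Psmd1 (128.2, 128.5 and 120.5 CPM) and Psmc5 (36.6, 33.3 and 41.2 CPM) were the other 2 at the low end.

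The 3 chaperones that help assemble the 19S base, present only until the particle is complete, had larger folds than the 19S set. Together they had 49.9 CPM in spleen against 116.1 and 90.3 CPM in muscle, 2.33-fold (1.69 to 3.26) and 1.81-fold (1.31 to 2.54). Psmd5 (S5b) was the one member past 2-fold in both, with 5 UMIs in spleen and 41 and 39 in muscle, or 5.09, 26.7 and 20.4 CPM. That is 5.25-fold (2.08 to 17.04) and 3.999-fold (1.58 to 12.9992), and rests on 3 cells from spleen and on 27 and 19 from the muscle libraries. Psmd10 (gankyrin) had 22.4, 50.2 and 39.1 CPM, 2.24-fold (1.38 to 3.78) and 1.75-fold (1.07 to 2.95). Its spleen level rests on 22 UMIs in 9 cells. Its mean log2 fold of 0.99 was as low as 0.33 under other scaling, weighting or cell filters. Psmd9 (p27) had 22.4, 39.1 and 30.8 CPM, and its second interval (0.83 to 2.36) reached below 1. Psmd5 is outside the genes with 200 UMIs, so the count of members past 2-fold was 0 at that minimum.

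Psmb11, the beta subunit of the thymus cortex proteasome, was detected in all 3 libraries at low level and differed between the muscle libraries. It had 13 UMIs in spleen, 6 in muscle 1 and 37 in muscle 2, or 13.2, 3.91 and 19.3 CPM, and muscle 2 was 4.93-fold (2.06 to 14.3) above muscle 1. The UMIs were spread thinly, at 1 in each of 13 spleen cells and each of 6 cells of muscle 1, and over 35 cells of muscle 2. For comparison, Psmb8 averaged 2.82 UMIs in each spleen cell in which it was seen. The origin of these reads was not tested.

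Genes outside the members that act with the proteasome were compared through lists. Of all genes, 7.47% passed 2-fold higher and 3.45% lower. Of 11 measured assembly and regulation genes (17 listed), 0 passed 2-fold in either direction and the median log2 fold was 0.05. Pomp, which matures the core and is needed for immunoproteasome assembly, had 212.7 CPM in spleen and 266.7 and 270.3 CPM in muscle, 1.25-fold (1.06 to 1.49) and 1.27-fold (1.08 to 1.499). Psmg1, a core chaperone, was lowest at 28.5, 17.6 and 11.5 CPM. Of 18 measured ubiquitin and delivery genes, 0 passed 2-fold and the median was 0.14. Uba1, the main ubiquitin-activating enzyme, was highest there, with 296.2, 446.1 and 540.6 CPM, while Rps27a, whose ubiquitin is made fused to a ribosomal protein, was at 0.53-fold (0.51 to 0.56) and 0.61-fold (0.58 to 0.64) in the muscle libraries.

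Along the class I pathway that the immunoproteasome feeds, 0 of 15 measured genes passed 2-fold, and the median log2 fold was 0.54. Tap1 had 217.8 CPM in spleen and 397.8 and 374.1 CPM in muscle, 1.83-fold (1.56 to 2.14) and 1.72-fold (1.47 to 2.01). Tapbp, the tapasin gene that bridges the transporter and class I, had 341.96, 591.5 and 672.1 CPM. Type I interferon-stimulated genes stood much higher: 21 of 45 measured were past 2-fold higher in both muscle libraries, 0 lower, with a median log2 fold of 1.13. The interferon-gamma-linked list had 2 of 23 higher (Ifngr1, the receptor subunit, and Irf8, a transcription factor) and a median of 0.52. That count is close to the 7.47% of all genes. Irf1, a transcription factor known to act at the Psmb9 and Tap1 promoter, was lower in muscle at 264.6, 168.3 and 145.1 CPM, 0.64-fold (0.53 to 0.76) and 0.55-fold (0.46 to 0.65). Between tissues, then, the inducible proteasome genes had a smaller median than the type I list, 0.31 against 1.13 on the log2 scale.

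Cell by cell within muscle, the inducible proteasome genes did follow the interferon genes. Each cell was thinned to 1000 UMIs, and its UMIs of the 49 type I interferon-stimulated genes in the table, which contain no proteasome member, were counted. Cells with fewer than 1000 UMIs were left out (0 in spleen, 26 and 7 in muscle). Across cells, summed immunoproteasome UMIs had a Pearson r with that count of 0.36 in muscle 1, 0.34 in muscle 2 and 0.15 in spleen. The spleen value was unsteady: it was 0.27 with cells thinned to 1500 UMIs and 0.07 with another draw of 1000, while muscle gave 0.36 and 0.40 at 1500. For the constitutive core r was 0.01, -0.02 and 0.10 in the same order, and for the 19S particle -0.08, -0.10 and 0.03. The cells of a library share its depth and preparation, so these are descriptions. Against the interferon-gamma-linked list, which shares 2 genes with the type I list, the immunoproteasome had r of 0.30 and 0.27 in muscle and 0.06 in spleen.

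Levels by bin show the shape of this relation. In muscle 1, immunoproteasome genes took 11.2 of every 10000 thinned UMIs in cells with 1 or 2 interferon-list UMIs, 13.97 with 3 to 5, 13.9 with 6 to 9 and 24.4 with 10 or more. Muscle 2 gave 12.4, 13.96, 17.9 and 27.4 in the same order. Cells with 1 or 2 made up 25.2% and 23.9% of the cells of the 2 libraries. Cells with 10 or more were above cells with 1 or 2 by 2.18-fold (1.81 to 2.62) and 2.21-fold (1.87 to 2.63). The constitutive core differed by less than counting error between the same cells, at 1.03-fold (0.89 to 1.20) and 0.99-fold (0.85 to 1.15), and so did the 19S particle, at 0.91-fold (0.73 to 1.13) and 0.89-fold (0.74 to 1.07). Between those bins the 19S particle was not flat in muscle 1, where cells with 3 to 5 were at 1.43-fold (1.20 to 1.71) and cells with 6 to 9 at 1.38-fold (1.13 to 1.68) of cells with 1 or 2, and muscle 2 gave 0.94-fold (0.79 to 1.11) and 0.94-fold (0.77 to 1.14). Over 1 or 2 UMIs, cells with 3 or more stood at 1.52-fold (1.29 to 1.80) and 1.55-fold (1.33 to 1.81), below the folds of the highest bin. The bins above 3 were chosen after seeing the data. Over cells with 0, cells with 3 or more had the immunoproteasome at 1.71-fold (1.15 to 2.66) and 1.51-fold (1.15 to 2.01). The core was at 1.47-fold (1.08 to 2.05) in muscle 1, while its muscle 2 interval (0.82 to 1.24) included 1. The 19S particle was at 1.05-fold (0.75 to 1.498) in muscle 1 and lower, at 0.64-fold (0.52 to 0.80), in muscle 2. Against cells with 0, then, core and 19S were not flat in every library. The cells with 0 were few, 25 and 44 in muscle, and folds against them moved with the thinning draw. The immunoproteasome fold of 1.51 in muscle 2 became 2.51 with another seed.

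**Figure D3:**
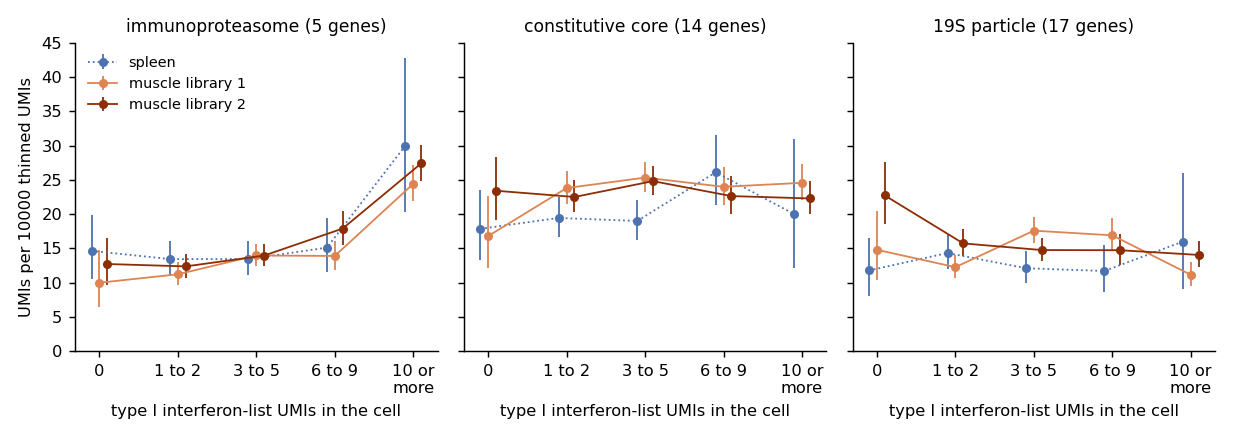
Summed UMIs of each subunit set per 10000 thinned UMIs (y axis) in cells binned by their UMIs of the type I interferon-stimulated list (x axis), for each library; points are bins, bars exact Poisson 95% intervals, lines join bins of 1 library. The immunoproteasome rises to 24.4 and 27.4 in the top bin of the muscle libraries while core and 19S end near their values in cells with 1 or 2; the spleen's top bin holds 10 cells.

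Spleen gave a less certain picture. Immunoproteasome genes took 13.4 per 10000 in the 90 spleen cells with 1 or 2 interferon-list UMIs, 13.4 in the 90 with 3 to 5 and 15.1 in the 41 with 6 to 9, the last at 1.12-fold (0.81 to 1.54) of the first. The constitutive core was at 1.34-fold (1.05 to 1.72) in the same cells with 6 to 9. The 10 spleen cells with 10 or more reached 30 per 10000, but 18 of their 30 UMIs were Psme1, and 11 of those came from a single cell. Such cells made up 3.86% of spleen cells, against 21.3% and 22.3% of muscle cells. Within each of the 5 narrow bins the interval of muscle over spleen included 1. The fold was 0.84-fold (0.66 to 1.06) and 0.92-fold (0.73 to 1.16) in cells with 1 or 2, and 1.04-fold (0.84 to 1.30) and 1.04-fold (0.84 to 1.29) in cells with 3 to 5. It was 0.68 and 0.87 in cells with 0, 0.92 and 1.18 with 6 to 9, and 0.81 and 0.91 with 10 or more. Over all cells with 3 or more, muscle 2 was above spleen in immunoproteasome genes at 1.27-fold (1.09 to 1.48). Muscle 1 stood at 1.13-fold (0.97 to 1.32). The spleen's end bins hold 28 and 10 cells, so the narrow bins cannot decide what makes up this difference. For the core, muscle over spleen was 1.33-fold (1.12 to 1.59) and 1.31-fold (1.10 to 1.56) with 3 to 5. With 6 to 9 the core was at 0.92-fold (0.73 to 1.16) and 0.87-fold (0.69 to 1.10). A difference between the tissues in the relation itself was not tested.

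Over cells with 1 or 2, all 5 inducible genes were higher beyond counting error in the top bin of muscle 1. In muscle 2 all but Psmb10 were. That bin was chosen after seeing the data. With 3 or more over 1 or 2, only Psmb10, Psme1 and Psme2 in muscle 1 had intervals above 1. In muscle 2 only Psmb8 and Psme1 did. Psmb8 in muscle 1 was then at 1.31-fold (0.99 to 1.77), and at 1.04-fold (0.70 to 1.55) with 6 to 9. From cells with 1 or 2 to cells with 10 or more interferon-list UMIs, Psmb8 rose per 10000 UMIs from 3.74 to 7.17 in muscle 1 and from 3.598 to 8.95 in muscle 2, 1.92-fold (1.38 to 2.68) and 2.49-fold (1.82 to 3.44). Psme1 went from 2.88 to 5.58 and from 3.17 to 8.24, and Psme2 from 2.70 to 6.38 and from 3.48 to 5.95. In the top bin Psmb9 stood at 2.44-fold (1.30 to 4.74) and 2.92-fold (1.42 to 6.47) its level with 1 or 2. Psmb10 was 3.15-fold (1.70 to 6.14) higher in muscle 1, but in muscle 2 its 1.56-fold (0.90 to 2.75) was within counting error of no difference. Psme3, the PA28 homologue that interferon is not known to raise, was at 0.59-fold (0.18 to 1.70) and 0.81-fold (0.42 to 1.54), and Psmb5 at 0.41-fold (0.17 to 0.90) and 0.74-fold (0.38 to 1.41).

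Member by member, r with the type I list was 0.22 and 0.27 for Psmb8, 0.24 and 0.13 for Psme2, 0.11 and 0.21 for Psme1, 0.14 and 0.14 for Psmb9, and 0.19 and 0.07 for Psmb10 in muscle 1 and muscle 2. At an r of at least 0.1 in both muscle libraries, among genes with 200 UMIs or more, 4 of the 5 inducible genes passed, with 0 of 14 core genes, 0 of 15 genes of the 19S particle and 0 of 1 other activator. Of the 3589 such genes outside the list, 1.98% passed. That threshold was chosen after seeing the values. Psmd4, Psmb3 and Psmd9, which hold the interferon regulatory factor core near their start as Psme1 does, had r of 0.05, 0.03 and 0.06 in muscle 1 and -0.05, -0.05 and -0.01 in muscle 2. In spleen Psmd9 had the highest r of the members, 0.27. That value rests on at most 22 UMIs in 20 spleen cells, the numbers before thinning. With 141 UMIs over the 3 libraries, Psmd9 is also below the minimum of 200.

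**Figure D4:**
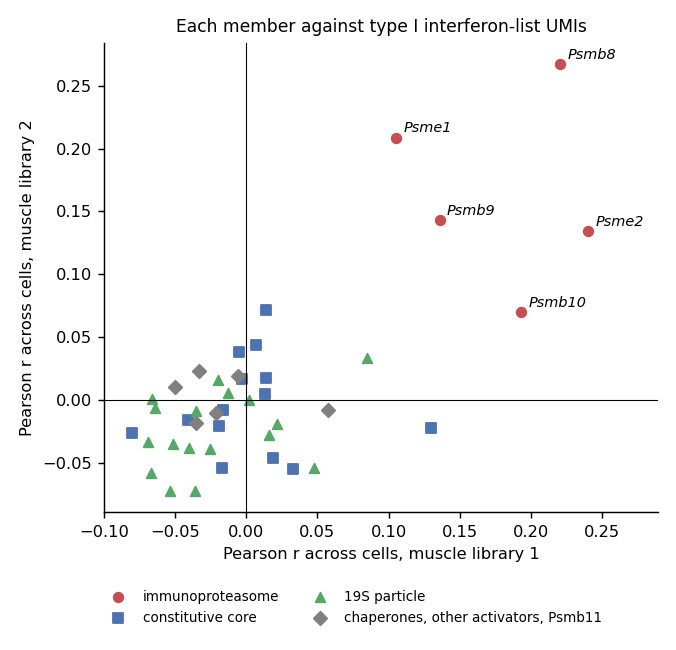
Pearson r across cells of each measured member with the type I interferon-list UMIs of the cell, in muscle 1 (x axis) and muscle 2 (y axis); each point is a gene, coloured by group. The 5 inducible genes lie in the upper right, while core and 19S genes scatter around 0, Psma5 reaching 0.13 in muscle 1 and -0.02 in muscle 2.

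Summed over the 6 catalytic genes, the inducible share of UMIs was higher in muscle cells with 10 or more interferon-list UMIs than with 1 or 2. Between tissues the intervals overlapped. In muscle 1 the inducible share of the 6 catalytic genes was 64.8% (56.3 to 72.6) in cells with 1 or 2 interferon-list UMIs and 83.5% (77.7 to 88.3) in cells with 10 or more. Muscle 2 gave 64.4% (56.04 to 72.1) and 80.8% (75.4 to 85.5). In both the intervals were apart. The Psmb8 share of its pair with Psmb5 went from 70.1% (59.4 to 79.5) to 91.7% (84.8 to 96.1) in muscle 1 and from 69.4% (58.5 to 78.95) to 88.4% (82.3 to 93.0) in muscle 2. The other pairs rested on fewer UMIs, and their intervals overlapped between the bins. Psmb9 of its pair went from 64% (42.5 to 82.03) to 76.7% (61.4 to 88.2) in muscle 1 and from 40.7% (22.4 to 61.2) to 68.2% (52.4 to 81.4) in muscle 2. Psmb10 of its pair went from 50% (31.3 to 68.7) to 72.7% (59.04 to 83.9) in muscle 1 but from 70.6% (52.5 to 84.9) to 68.6% (54.1 to 80.9) in muscle 2. Muscle cells with 0 interferon-list UMIs were few. Their Psmb8 share was 83.3% (51.6 to 97.9) in muscle 1 and 82.6% (61.2 to 95.05) in muscle 2. Their share over the 6 genes was 65% (40.8 to 84.6) and 69.2% (52.4 to 82.98). These intervals overlapped those of cells with 10 or more, so a rise from cells with 0 was not shown. The spleen share over the 6 genes did not rise. It was 90% (68.3 to 98.8) with 0, 71.7% (58.6 to 82.5) with 1 or 2 and 65.1% (49.1 to 78.99) with 6 to 9. Psmb5 was higher in spleen cells with 3 or more than with 1 or 2, at 3.06-fold (1.15 to 10.3). It rested on 24 and 5 UMIs.

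**Figure D5:**
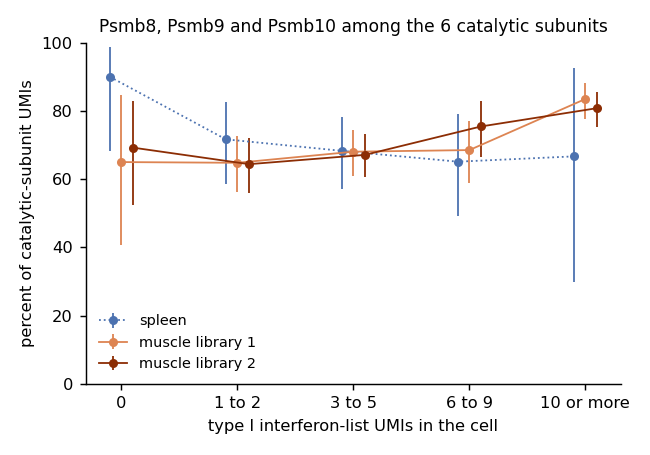
Share of Psmb8, Psmb9 and Psmb10 among the UMIs of the 6 catalytic subunit genes (y axis, percent) by type I interferon-list UMIs in the cell (x axis), for each library, with exact binomial 95% intervals. Both muscle libraries climb from about 64.8% and 64.4% in cells with 1 or 2 to 83.5% and 80.8% in cells with 10 or more, and spleen does not. The intervals of the few muscle cells with 0 overlap those of cells with 10 or more.

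Other measures in the same muscle cells show what moved with the bins, and spleen is given last. Tap1, in the Psmb9 start region, was 2.68-fold (1.89 to 3.85) and 2.46-fold (1.69 to 3.64) as high in the top bin as with 1 or 2 UMIs, and Tapbp 3.45-fold (2.49 to 4.86) and 2.88-fold (2.20 to 3.80). B2m, the light chain of class I, rose less, by 1.34-fold (1.25 to 1.44) and 1.28-fold (1.19 to 1.37). Irf1 was 1.93-fold (1.11 to 3.45) and 2.72-fold (1.39 to 5.63) higher, although lower in muscle than in spleen. Foxp3 was within counting error, at 1.13-fold (0.84 to 1.52) and 0.95-fold (0.69 to 1.30), and so was the summed effector Treg list, at 0.98-fold (0.93 to 1.02) and 0.99-fold (0.95 to 1.03). The cell cycle list was lower in the top bin of muscle 2, at 0.82-fold (0.70 to 0.97), and at 1.06-fold (0.88 to 1.27) in muscle 1. The resting lymphocyte list was at 0.89-fold (0.73 to 1.09) and 0.93-fold (0.76 to 1.13). Myeloid markers were at 0.14 and 0.20 per 10000 in the top bin and B cell markers at 0.22 and 0.46, against 0 and 0.12 for myeloid and 0.61 and 0.49 for B cell markers in cells with 1 or 2, so the B cell list was no higher and the myeloid list differed by at most 2 UMIs in a library. The part of these markers was not tested. Before thinning the median cell held 1808 UMIs with 1 or 2 and 2203 in the top bin in muscle 1, and 2431 and 2556 in muscle 2. The part of this depth difference was not tested. In spleen the effector and resting lists moved with the bins, over cells with 1 or 2. The effector list was at 1.27-fold (1.10 to 1.46) with 6 to 9 and 1.60-fold (1.28 to 1.99) with 10 or more. The resting list was at 0.71-fold (0.55 to 0.91) and 0.43-fold (0.22 to 0.74), with 10 cells in the top bin. Spleen cells with 3 or more were also set over cells with 1 or 2. There Tap1 was at 2.38-fold (1.20 to 5.13) and Irf1 at 2.18-fold (1.29 to 3.86). Tapbp, at 1.06-fold (0.65 to 1.78), and B2m, at 1.05-fold (0.94 to 1.16), were within counting error. Across cells the immunoproteasome had r with the resting list of -0.17 in spleen, -0.12 in muscle 1 and -0.02 in muscle 2.

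The genes most like the immunoproteasome across muscle cells were interferon-stimulated genes. Ranked by the smaller r over the 2 muscle libraries with the summed immunoproteasome UMIs, the first 8 of 3585 genes were Isg20 (0.28 and 0.25), Isg15 (0.29 and 0.24), Ifit3 (0.25 and 0.20), Igtp (0.20 and 0.21), Zbp1 (0.20 and 0.22), Ifi27l2a (0.20 and 0.26), Irf7 (0.19 and 0.21) and Bst2 (0.28 and 0.19). Of these, 7 are in the type I list, which had 31 genes among those ranked, and Igtp, an interferon-inducible GTPase gene, is in the interferon-gamma-linked list. Tapbp ranked 22, Tap2 27, Tap1 29 and B2m 32. The median r over all ranked genes was -0.0035 in muscle 1 and -0.0055 in muscle 2. The inducible genes were only weakly tied to one another: r of each with the sum of the other 4 was 0.05 to 0.13 in muscle 1, 0.08 to 0.16 in muscle 2 and -0.07 to -0.02 in spleen. Their sum had r of 0.02, 0.05 and 0.05 with the constitutive core in muscle 1, muscle 2 and spleen.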

How the data were processed

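Messenger RNA of single sorted Tregs was counted by inDrops, a droplet method that primes at the poly(A) tail. The deposited values are whole-number UMI counts per gene and cell. TopHat2, SAMtools and the mm10 genome are named in the submitters' processing notes, without versions. Not given in the sources used here were annotation, strand setting and cell filter, and no doublet caller was run. Counts were summed per library and divided by the library total. Folds and shares have exact conditional binomial (Clopper-Pearson) intervals and levels exact Poisson intervals, at 95%. Genes with at least 50 UMIs were measured. Cells were thinned to 1000 UMIs (seed 1) for relations across cells. Named genes were the members, up to 4 genes with the largest fold in either direction from each list, genes of the class I and assembly pathways chosen with results known, and the 8 genes most like the immunoproteasome. Members and lists were chosen with earlier results of these data known. edgeR 4.0.16 and DESeq2 1.42.0 gave alternative scaling factors only, in R 4.3.3. Tables were handled in pandas 2.3.3 and numpy 2.4.6, intervals came from scipy 1.17.1 and plots from matplotlib 3.10.9, under Python 3.11.15. Scripts were tested on simulated data.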

Additional observations from a re-analysis of the deposited data

How the results depend on the processing

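No paired analysis was possible because the spleen has 1 library and no animal is named. Members past 2-fold higher numbered 1 with all cells, 2 with equal weight per cell (Psma5 added), 2 with cells thinned to 1000 UMIs (Psmd8 added), 0 at 200 UMIs and 7 at 1.5-fold. Leaving out a muscle library gave 1 to 2 higher and 0 to 1 lower. The core median log2 fold (0.23) was 0.20 with DESeq2 size factors, 0.084 without ribosomal protein genes, 0.31 with equal weight, 0.26 thinned, 0.19 without cells above 3 times the median UMI count, and 0.24 to 0.26 leaving out a muscle library. The immunoproteasome median (0.31) was 0.28 with DESeq2 size factors, 0.16 without ribosomal protein genes, 0.20 with equal weight and 0.090 thinned. Leaving out a library it was 0.23 to 0.27. The 19S median (0.22) was 0.066 without ribosomal protein genes, 0.14 without the high-UMI cells and 0.22 to 0.28 leaving out a library, and that of the chaperones (0.99) was 0.62 with equal weight. In percentage points of muscle minus spleen, the Psmb8 share moved from -0.23 to 5.54 thinned and 2.19 with equal weight, Psmb9 to -12.4 thinned, Psmb10 from 2.06 to -0.31 with equal weight, and the 3 inducible of 6 from 1.15 to 1.66 thinned. For cells with 3 or more over cells with 0 interferon-gene UMIs, the immunoproteasome in muscle 2 (1.51-fold) was 2.51 with seed 2 and 2.55 at 1500 UMIs. The core in muscle 1 (1.47) was 0.89 with the interferon-gamma-linked list and 1.07 with seed 2. The 19S in muscle 2 (0.64) was 1.02 with that list and 0.86 at 1500 UMIs, and in spleen (1.04) 1.89 at 1500 UMIs. The r of the immunoproteasome was 0.27 in spleen at 1500 UMIs, 0.27 in muscle 1 as Spearman's rho and 0.27 in muscle 2 with the gamma list. The core fold of cells with 10 or more over 1 or 2 in muscle 1 was 0.86 with seed 2. The causes of these shifts were not tested. The mean log2 fold of 12 of 42 members changed sign under some scaling, weighting or cell filter, and 26 stayed above 0 under all of them.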
